A study of Mus musculus with 12 samples.

Results

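The genes described here code for 8 proteins that bring fatty acids into liver cells or carry them inside: Cd36, Slc27a2, Slc27a5, Mfsd2a, Fabp1, Fabp2, Fabp4 and Fabp5. They were chosen by gene symbol and are measured by 9 of the 26423 probes on the array, which stand for 8 of 19084 named genes. Cd36 has 2 probes, called probe A and probe B here, and each of the other members has 1. Liver RNA of male C57BL/6 mice was measured on 12 single-colour arrays, 3 in each of 4 groups, in a study of how a citrus flavonoid extract acts on fatty liver. ND mice ate a normal diet with 12.3% fat for 24 weeks. HFD16 and HFD24 mice ate a diet with 36.1% fat, to which 10% lard and 2% cholesterol had been added along with egg yolk powder and bile salt, for 16 and 24 weeks. PTFC mice ate the same fatty diet for 24 weeks. After the first 6 weeks they were also given pure total flavonoids from citrus by the stomach, 50 mg per kg each day, through the last 18 weeks. All other mice received saline, and all were fasted for 12 hours before the liver was taken. Age at sampling was 23 to 25 weeks in HFD16, 31 to 33 weeks in HFD24 and PTFC and 30 to 33 weeks in ND, so age differs in every comparison with HFD16. The labels give 6 mice per group but do not say whether an array holds 1 mouse or a pool, so the spread behind every p-value is that between arrays and may be technical.

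Long-chain fatty acids that adipose tissue releases in a fast reach the liver in plasma. CD36 at the cell surface takes them up along with oxidised lipoproteins, and the Slc27 proteins couple uptake to activation with coenzyme A. Slc27a2 encodes a very-long-chain acyl-CoA synthetase and Slc27a5 the bile acyl-CoA synthetase, whereas Mfsd2a encodes a sodium-dependent transporter of lysophosphatidylcholine that is known as a fasting-induced liver gene. Inside the cell the fatty acid binding proteins hold fatty acids in solution: FABP1 is the abundant liver form, FABP2 is best known from the small intestine, FABP4 from adipocytes, macrophages and endothelium, and FABP5 from epidermis and macrophages.

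Of 14 hepatocyte markers, 13 were measured, none was at 0 on any array or, by its mean, among the dimmest 25% of probes, and their summed intensity was 3293970 to 3578810 in ND, 2875320 to 3196510 in HFD16, 2893140 to 3409820 in HFD24 and 3380280 to 3632020 in PTFC. HFD16 thus lay below ND, and Tat was lower than ND in HFD24 (-0.87) and HFD16 (-0.82) and Pck1 in HFD16 (-0.41), both genes of fasting metabolism; their part in the members' values was not tested. Median intensity per array ran from 249 to 338 in HFD24 and from 369 to 408 in PTFC, so that on the scale of the deposited values the median probe was 0.30 log2 units higher in PTFC than in HFD24 and 0.28 lower in HFD24 than in ND. The differences given here are from quantile normalized log2 values, on which those medians were 0.024 and -0.072. Almost all deposited values of an array were whole multiples of 1 number, called its scaling step here. The step was 1.23 to 1.46 in ND and at most 1.05 in HFD16, 1.12 in HFD24 and 1.03 in PTFC. With the step as a covariate, step and diet therefore cannot be told apart in comparisons with ND. Arrays of a group correlated across probes at 0.982 to 0.992 and arrays of different groups at 0.962 to 0.989. HFD24 arrays serve in the comparison with ND and in that with PTFC, and ND arrays in all comparisons with the normal diet, so the directions of those comparisons are not independent of each other. In whole liver, fewer cells of a type and less RNA per cell cannot be told apart.

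Against ND, 3 member probes were called at each time on the fatty diet, and the extract group differed from its diet control in 2. Each of these counts includes probe A of Cd36, whose probe B did not pass. At 16 weeks the call of probe A held in 6 of 15 alternative settings only. ND was sampled after 24 weeks only, so diet and age cannot be told apart at 16 weeks. After 24 weeks of the diet Fabp2 rose and Mfsd2a and Cd36 (probe A) fell: 1 of 9 probes was higher and 2 were lower than in ND, or 33.3%, by limma with Benjamini-Hochberg adjustment over the 26423 probes. Of all probes 16.5% passed in that comparison, 8.5% higher and 7.96% lower. In PTFC against HFD24, Mfsd2a and probe A of Cd36 rose and none fell, which is 22.2% of the member probes, beside 5.78% of all probes (3.07% higher and 2.71% lower). After 16 weeks the same 3 probes were called as after 24 weeks and in the same directions, 33.3% beside 16.3% of all probes (8.64% higher and 7.69% lower). Between 16 and 24 weeks no member probe passed, beside 0.0227% of all probes, though 2 had an unadjusted p under 0.05 in limma, beside 9.72% of all probes. In PTFC against ND only Fabp2 passed, 11.1% of the member probes beside 1.75% of all probes. With so few members, chosen with earlier results of these data known, these shares describe the set and were not tested. On the normalized scale the ranges of 3 and 3 arrays did not overlap for 6 of 9 member probes in HFD24 against ND, beside 32.5% of all probes, for 2 of 9 in PTFC against HFD24, beside 30.9%, for 4 of 9 in HFD16 against ND, beside 34.6%, for 2 of 9 in HFD24 against HFD16, beside 16.2%, and for 3 of 9 in PTFC against ND, beside 20.6%.

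**Figure D1:**
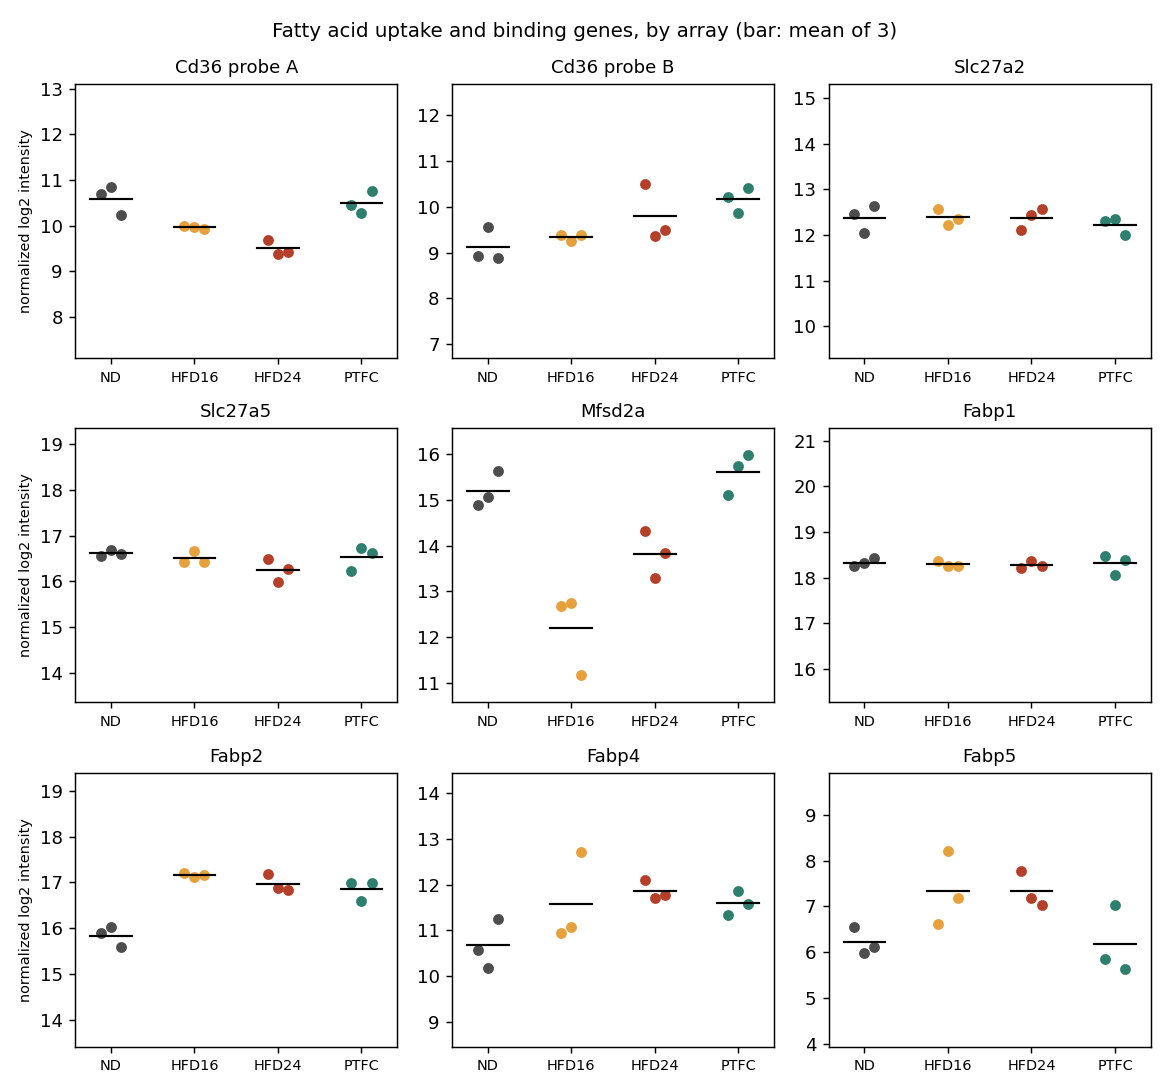
Normalized log2 intensity (vertical axis) of the 9 member probes in the 4 groups; each point is an array, each bar the mean of 3, and every panel spans the same number of log2 units. Mfsd2a and Cd36 probe A are lowest on the fatty diet alone, Fabp2 is high in all 3 groups on that diet, and the 4 groups of Fabp1 and of Slc27a2 overlap.

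**Figure D2:**
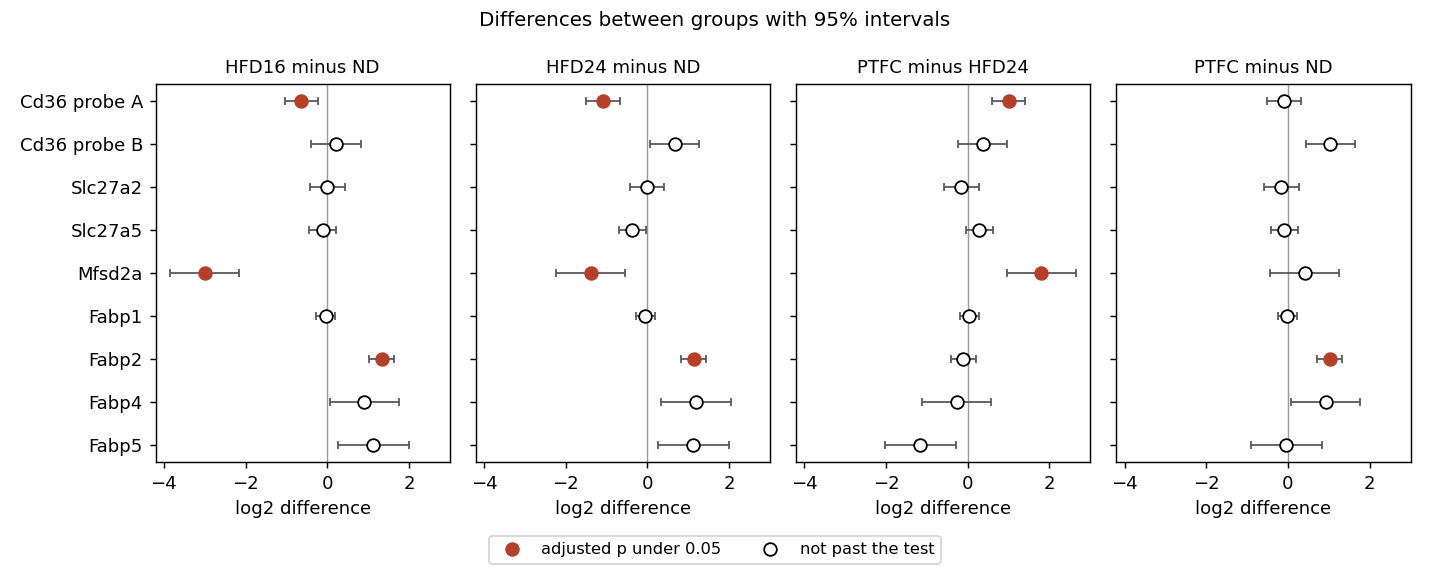
Log2 differences between groups with 95% intervals from the limma fit for the 9 member probes in 4 comparisons; filled points have an adjusted p under 0.05. Mfsd2a has the largest differences of these probes in the first 3 panels, and only Fabp2 is filled in PTFC against ND.

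Cd36 encodes the fatty acid translocase, whose transcription in liver is known to answer to peroxisome proliferator-activated receptor gamma, the liver X receptor and the pregnane X receptor. Its 2 probes went different ways under the fatty diet without the extract: probe A fell and probe B was higher without passing the test. The 250 bases upstream of the Cd36 start in the RefSeq promoter table, on the minus strand of GRCm38.p6 at chr5:17835897-17836146, are shown because probe A changed in 3 comparisons. Capitals mark the letters of the nuclear receptor half-site AGGTCA, here as its reverse complement TGACCT, 228 to 223 bases upstream of the start.
Cd36: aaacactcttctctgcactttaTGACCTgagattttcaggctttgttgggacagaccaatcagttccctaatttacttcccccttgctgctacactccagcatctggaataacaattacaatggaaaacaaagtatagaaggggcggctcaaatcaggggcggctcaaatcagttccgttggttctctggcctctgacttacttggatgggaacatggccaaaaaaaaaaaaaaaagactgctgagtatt

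Probe A read 1696, 1876 and 1096 in ND, 912, 1045 and 894 in HFD16, 696, 669.9 and 714 in HFD24, and 1516, 1311 and 1864 in PTFC, in deposited intensity units. By normalized mean the order of the groups was ND, PTFC, HFD16 and HFD24 (in deposited units the mean of PTFC, 1564, was above that of ND, 1556), in which ND and PTFC overlapped and every other pair of groups was apart. On the normalized log2 scale the means were 10.59 ± 0.31 in ND, 9.96 ± 0.038 in HFD16, 9.50 ± 0.17 in HFD24 and 10.50 ± 0.25 in PTFC (SD, n = 3 each). Probe A fell by 1.09 log2 units (SE 0.19, 2.13-fold) from ND to HFD24, with a limma adjusted p of 0.00269, and this held under all 15 alternative settings (adjusted p 0.000923 to 0.0407). In PTFC it was 1.00 log2 units (SE 0.19, 2.00-fold) higher than in HFD24, adjusted p = 0.0187 by limma, and all 3 PTFC arrays lay above all 3 HFD24 arrays. That call was lost without HFD24 replicate 1 (adjusted p = 0.0565), HFD24 replicate 2 (0.0562) or PTFC replicate 3 (0.109). At 16 weeks probe A was 0.63 log2 units below ND (SE 0.19, 1.55-fold, limma adjusted p = 0.0406), a call that held in 6 of 15 settings only. Among others it was lost under median centring (0.116), with the scaling step as a covariate (0.328), with the 2 groups alone (0.0739), and without ND replicate 1 (0.138), ND replicate 2 (0.147), HFD16 replicate 1 (0.0727), replicate 2 (0.0867) or replicate 3 (0.116). From 16 to 24 weeks the difference of -0.46 did not pass (limma adjusted p = 0.474), although the arrays were apart, and PTFC differed from ND by -0.091 with a 95% interval of -0.50 to 0.32.

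Probe B read 536, 806 and 420.2 in ND, 581, 619.7 and 589 in HFD16, 1304, 667 and 749 in HFD24, and 1301, 984 and 1477 in PTFC. Its lowest group was ND and its highest PTFC, which were apart from each other, while HFD24 overlapped both. HFD24 replicate 1 lay among the PTFC arrays in deposited units and above all of them after normalization (10.51, beside at most 10.40). HFD24 replicates 2 and 3 lay within the ND range. Differences of 0.67 (SE 0.28, limma adjusted p = 0.121) for HFD24 against ND, 0.37 (adjusted p = 0.456) for PTFC against HFD24 and 1.04 (adjusted p = 0.0796) for PTFC against ND did not pass the test, in the main fit or in any of the alternative settings run. The log2 difference between the probes on 1 array has no meaning as a level, but can be set between arrays. Probe A minus probe B was 1.78, 1.27 and 1.36 in ND, 0.60, 0.74 and 0.54 in HFD16, -0.81, 0.0087 and -0.067 in HFD24, and 0.24, 0.42 and 0.36 in PTFC. The 4 groups did not overlap in this quantity. The mean moved by -1.76 from ND to HFD24 and by 0.63 from HFD24 to PTFC, each with an exact two-sided permutation p of 0.1, the smallest that 3 against 3 arrays allow. PTFC arrays, whose probe A overlapped ND, remained 1.13 log2 units below ND in this quantity (exact permutation p = 0.1). Where the 2 probes lie on the transcript was not analysed here, so a direction for Cd36 as a gene cannot be given.

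**Figure D3:**
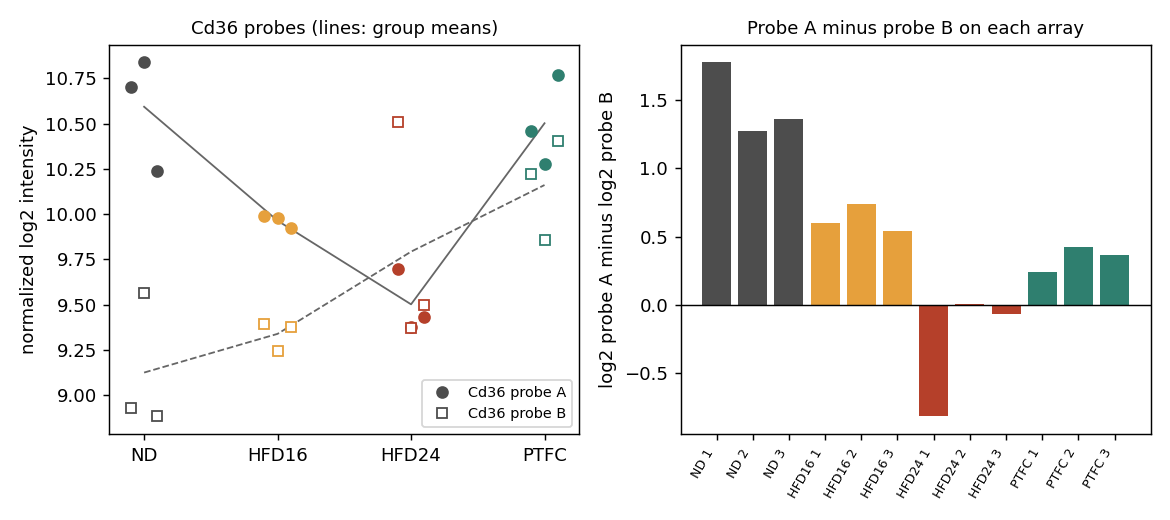
Left, normalized log2 intensity of the 2 Cd36 probes by group (filled circles probe A, open squares probe B, one point per array, lines through the group means); right, log2 probe A minus log2 probe B on each of the 12 arrays. Probe A falls on the fatty diet without the extract and probe B does not. The difference between them is at least 1.27 on every ND array and at or below 0.0087 on every HFD24 array.

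Mfsd2a, the lysophosphatidylcholine transporter, fell further on the fatty diet than any other member and was higher again in PTFC. Its 250 upstream bases, on the minus strand of GRCm38.p6 at chr4:122961189-122961438, are shown for that reason, with the letters AGGTCA in capitals at 213 to 208 bases upstream.
Mfsd2a: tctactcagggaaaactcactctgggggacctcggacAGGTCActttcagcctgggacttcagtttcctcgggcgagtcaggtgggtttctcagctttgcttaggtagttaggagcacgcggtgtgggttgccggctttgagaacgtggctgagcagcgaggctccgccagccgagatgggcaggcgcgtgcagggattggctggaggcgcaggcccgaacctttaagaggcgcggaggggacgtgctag

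Mfsd2a read 31911, 35827 and 51322 in ND, 6357, 7114 and 2213 in HFD16, 19603, 9625 and 14851 in HFD24, and 35609, 60442 and 73384 in PTFC. All 6 arrays of the diet alone lay below all 6 of ND and PTFC, HFD16 lay below HFD24 without overlap, and ND and PTFC overlapped. The normalized log2 means were 15.20 ± 0.39 in ND, 12.20 ± 0.90 in HFD16, 13.81 ± 0.52 in HFD24 and 15.61 ± 0.45 in PTFC (SD, n = 3 each). At 16 weeks Mfsd2a fell by 3.002 log2 units (SE 0.39, 8.01-fold), adjusted p = 0.00108 by limma, and passed in all 15 alternative settings (-3.69 to -2.49). At 24 weeks it fell by 1.39 log2 units (SE 0.39, 2.62-fold), limma adjusted p = 0.0287. This call was lost under median centring (adjusted p = 0.0644) and without ND replicate 1 (0.0536), 2 (0.0688) or 3 (0.0723), HFD24 replicate 2 (0.0962) or HFD24 replicate 3 (0.0618). The rise from HFD24 to PTFC was 1.80 log2 units (SE 0.39, 3.48-fold), limma adjusted p = 0.0250, and was lost without HFD24 replicate 1 (0.0600), 2 (0.0756) or 3 (0.0539) or PTFC replicate 2 (0.0624) or 3 (0.140). The level at 24 weeks was 3.06-fold above that at 16 weeks, with an unadjusted p of 0.00114 and an adjusted p of 0.258 in limma, so it did not pass. PTFC was 0.41 log2 units above ND (95% interval -0.43 to 1.26), which did not pass.

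The 2 acyl-CoA synthetases of the Slc27 family did not pass in any comparison. Slc27a5, which also conjugates bile acids with coenzyme A, read 103255, 110560.5 and 101129 in ND, 83650.3, 97221 and 83422 in HFD16, 91531, 59887 and 70355 in HFD24, and 78003, 120087 and 115964.5 in PTFC. HFD24 lay below ND without overlap, and PTFC overlapped both. The difference from ND to HFD24 was -0.37 log2 units (SE 0.15, 95% interval -0.70 to -0.039, limma adjusted p = 0.117) and that from HFD24 to PTFC 0.28 (-0.050 to 0.61, adjusted p = 0.286). Slc27a2, which activates very-long-chain fatty acids, read 5617, 4227 and 6249 in ND, 5844, 5047 and 5160.3 in HFD16, 4118, 5456 and 6269 in HFD24, and 5051, 5475 and 4215 in PTFC. All 4 groups overlapped. HFD24 minus ND was -0.0042 with a 95% interval of -0.43 to 0.42, and PTFC minus HFD24 was -0.16 (-0.58 to 0.26), so changes beyond about those bounds are outside the intervals and smaller ones could not be resolved.

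The liver and intestinal binding proteins behaved differently: Fabp2 rose with the fatty diet whether or not the extract was given, and Fabp1 differed between groups by less than its error. Their upstream bases in GRCm38.p6, both on the plus strand, are set together for the contrast: Fabp1 at chr6:71199629-71199878 and Fabp2 at chr3:122894822-122895071. In the Fabp1 sequence capitals mark TGACCT at 9 to 4 bases upstream and the run TGACCTATGGCCT, at 67 to 55, whose other strand has the form AGGNCANAGGTCA, that is 2 half-sites with 1 letter between them and 1 letter of the first left free. The Fabp2 sequence holds none of the letters searched and is in lower case throughout.
Fabp1: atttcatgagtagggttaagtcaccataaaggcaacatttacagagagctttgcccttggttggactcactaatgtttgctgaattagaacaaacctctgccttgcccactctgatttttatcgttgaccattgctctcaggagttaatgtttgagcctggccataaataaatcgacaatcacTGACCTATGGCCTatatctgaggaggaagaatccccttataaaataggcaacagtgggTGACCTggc
Fabp2: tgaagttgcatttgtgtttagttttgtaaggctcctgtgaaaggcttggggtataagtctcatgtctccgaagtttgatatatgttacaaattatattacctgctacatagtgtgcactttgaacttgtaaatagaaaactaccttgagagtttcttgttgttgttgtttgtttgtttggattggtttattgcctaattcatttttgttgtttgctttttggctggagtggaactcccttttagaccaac

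Fabp2 read 62912, 69418 and 49696 in ND, 143945, 134377 and 141784 in HFD16, 148209, 116205 and 105467 in HFD24, and 132606, 108121 and 147916 in PTFC. Every array of the fatty diet lay above every ND array. Normalized log2 means were 15.83 ± 0.21, 17.17 ± 0.040, 16.97 ± 0.19 and 16.86 ± 0.23 in ND, HFD16, HFD24 and PTFC (SD, n = 3 each). Fabp2 rose 2.52-fold at 16 weeks (1.33 log2 units, SE 0.14, limma adjusted p = 0.000469) and 2.19-fold at 24 weeks (1.13, SE 0.14, adjusted p = 0.000599), and passed in all 15 alternative settings of both comparisons. In PTFC it was 2.03-fold above ND (1.02, SE 0.14, limma adjusted p = 0.00498), a call lost under median centring alone (0.0599). PTFC and HFD24 differed by -0.11 (95% interval -0.42 to 0.20, limma adjusted p = 0.692), which was 0.074 on the deposited scale. HFD16 and PTFC did not overlap on the normalized scale (difference 0.31, exact permutation p = 0.1), while HFD24 overlapped both.

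Of the intestinal epithelium markers, 7 of 10 did not pass between ND and HFD24. All 10 were measured and none was at 0, with Vil1, Sis, Lct and Muc2 among the dimmest 25% of probes. Of all probes, 8.5% were higher and 7.96% lower in HFD24 than in ND. Of the 10 markers none was higher and 3 were lower (Alpi by -0.76, Cdx2 by -0.59 and Lgals4 by -1.01 log2 units). Their summed intensity, most of it from Lgals4 (19766 to 23540.0 in ND and 6991 to 13276 in HFD24), was 22001 to 25576.5 in ND, 6924 to 8716 in HFD16, 8244 to 15336 in HFD24 and 16190 to 27249 in PTFC. Their part in the level of Fabp2 was not tested. Fabp1, the liver form, read 325626, 324483 and 365887 in ND, 353671, 274328 and 296764.5 in HFD16, 291279, 356631 and 291323 in HFD24, and 368147, 287953 and 377845 in PTFC, with all groups overlapping. Its differences were -0.054 (95% interval -0.28 to 0.18) for HFD24 against ND, -0.041 (-0.27 to 0.19) for HFD16 against ND and 0.035 (-0.20 to 0.27) for PTFC against HFD24. The mean signal of Fabp1 was at the 99.93 percentile of all probes (Fabp2 at 99.23). Its readings of 325626, 274328, 296764.5 and 291323 all became 18.25 after normalization. Whether a signal so near the top of the scale hides differences in Fabp1 was not tested.

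Fabp4 and Fabp5 were higher in HFD24 than in ND on all arrays, by 2.28-fold and 2.17-fold of the normalized means, but neither passed the test. In deposited units the mean of Fabp5 was 143 in HFD24 and 85.0 in ND. Fabp4, the adipocyte and macrophage form, read 1559.9, 1199.98 and 2319.8 in ND, 1813, 2258 and 6622 in HFD16, 4129, 3272 and 3653 in HFD24, and 2653, 3949 and 3176 in PTFC. ND was below HFD24 and PTFC without overlap, and HFD16 spanned them because of replicate 3. The difference of 1.19 log2 units (SE 0.39, 2.28-fold) between HFD24 and ND had a limma adjusted p of 0.0550. It passed in 5 of 15 settings, among them median centring (0.0437), the 2 groups alone (0.0206) and the fit without ND replicate 3 (0.0257). HFD16 was 0.91 above ND (adjusted p = 0.129 by limma) and 0.34 above it without HFD16 replicate 3. PTFC differed from HFD24 by -0.27 (95% interval -1.12 to 0.58).

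Fabp5, the epidermal and macrophage form, was dim, with a mean signal at the 31.4 percentile of all probes. It read 114.2, 76.4 and 64.3 in ND, 77.0, 290.3 and 119 in HFD16, 154.9, 146 and 129 in HFD24, and 72.5, 148 and 62.8 in PTFC. HFD24 lay above ND, and PTFC reached from below ND to the HFD24 range through its second replicate. The difference from ND to HFD24 was 1.12 log2 units (SE 0.40, limma adjusted p = 0.0741) and that from HFD24 to PTFC -1.16 (SE 0.40, adjusted p = 0.0993), neither past the test. The first passed with the 2 groups alone (0.0144) and was 0.45 with the scaling step as a covariate (0.584). The second passed only with that covariate (-1.22, adjusted p = 0.0498). On the deposited scale they were 0.79 and -0.70. The difference of 1.13 between HFD16 and ND (limma adjusted p = 0.0715) did not pass in 14 of 15 settings and passed without HFD16 replicate 1 (1.49, adjusted p = 0.0268). It was 0.68 without HFD16 replicate 2 (adjusted p = 0.250) and 0.30 with the scaling step as a covariate (0.794).

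Macrophage, endothelial and adipocyte markers were read on the same arrays because Fabp4, Fabp5 and Cd36 are known in those cells. Of all probes, 8.5% were called higher in HFD24 than in ND and 2.71% lower in PTFC than in HFD24. Of 11 measured among 13 monocyte and lipid-associated macrophage markers, none at 0, 10 were higher in HFD24 than in ND and 2, Itgax and Cx3cr1, were lower in PTFC than in HFD24 (-1.31 and -1.75). Their summed intensity was 4924 to 6158 in ND, 6641 to 31835 in HFD16, 27635 to 28613 in HFD24 and 12652 to 21466 in PTFC. All 11 Kupffer cell markers were higher in HFD24 than in ND and none passed between PTFC and HFD24. In the latter, 3 had an unadjusted p under 0.05 in limma, for which the share of all probes is not given here. Their list had sums of 25532 to 60359 in ND, 61781 to 254439.5 in HFD16, 159759 to 249581 in HFD24 and 110182 to 134435 in PTFC. HFD16 replicate 2 had the highest sum of both lists in its group and the highest Fabp5 of all arrays. Of 13 endothelial markers, all measured, 7 were higher in HFD24 than in ND, and the sums were 49109 to 61615 in ND, 60172 to 84003 in HFD16, 80843 to 88644 in HFD24 and 80413 to 86865 in PTFC.

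Of 8 measured among 10 adipocyte markers, none was at 0. Cidec and Lipe were higher in HFD24 than in ND and Pnpla2 and Retn lower, beside 8.5% and 7.96% of all probes. In PTFC against HFD24, 2 were higher and 1 was lower, beside 3.07% and 2.71% of all probes. The sums were 85512 to 91143 in ND, 37761 to 42055 in HFD16, 68363 to 87014 in HFD24 and 126421 to 146650 in PTFC. Most of each sum came from Pnpla2, Plin4 and Cidec. In PTFC these read 49310 to 70537, 24686 to 47990 and 29945 to 34155, beside 274 to 311 for Adipoq. The sums therefore follow those 3 genes and do not measure adipocyte content. Adipoq, which encodes adiponectin, read 2863 on HFD16 replicate 3 and 106 to 363 on the other 11 arrays. That array also had the highest Fabp4 (6622) and the lowest Mfsd2a (2213). The other adipocyte markers were mixed on it. Plin1 (485), Lep (50.3) and Retn (98.5) were the highest of HFD16, and Plin4 (9726) was the lowest of all arrays. Cidec, Lipe and Pnpla2 lay between the other arrays of HFD16, as did the sum of the list (39204). The part of these other cells in the values of Fabp4, Fabp5 and Cd36 was not tested.

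Fabp4 and Fabp5 are neighbours in the mouse genome, where the RefSeq table of GRCm38.p6 lists Fabp5, Pmp2, Fabp9, Fabp4 and Fabp12 in a row between Pag1 and Impa1. Pmp2 and Fabp9, the myelin and testis forms, were among the dimmest 25% of probes. Between ND and HFD24 none of the 5 genes passed: the differences of Pmp2, Fabp9 and Fabp12 were -0.18, 0.037 and -0.34 (limma adjusted p = 0.678, 0.937 and 0.271).

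The remaining genes of fatty acid supply were counted in 4 lists, beside medians over all probes of -0.072 for HFD24 against ND and 0.024 for PTFC against HFD24. By the adjusted test, 8.5% of all probes were higher and 7.96% lower in HFD24 than in ND. In PTFC against HFD24 these shares were 3.07% and 2.71%. The share of all probes with an unadjusted p under 0.05 is not given here for these comparisons. Counts of list genes by unadjusted p therefore cannot be set against it. Of the other binding and transport proteins, 13 of 15 were measured. Between HFD24 and ND none passed limma's adjusted test (1 had an unadjusted p under 0.05), with a median of -0.13. The smallest p belonged to Slc27a1 (-0.69, adjusted p = 0.0684), a fatty acid transporter of muscle and fat that fell by 1.19 log2 units at 16 weeks (adjusted p = 0.00807). Slc27a3 (0.38), Fabp12 (-0.34) and Got2 (-0.33) followed. In PTFC against HFD24, 1 of 13 fell and none rose (median -0.043): Slc27a3, an acyl-CoA synthetase of the same family, read 197, 225 and 244 in HFD24 and 175, 181 and 189.5 in PTFC, without overlap. The difference was -0.72 (SE 0.18, limma adjusted p = 0.0369). It was -0.28 on the deposited scale, where it did not pass, and the call was lost without any single array of the 2 groups (adjusted p 0.0657 to 0.148). Fabp6 (-0.91), Dbi (-0.22, with 0.23 for its other probe) and Cav1 (0.42) did not pass. Both Fabp6 and Cav1 were among the dimmest 25% of probes.

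Of the acyl-CoA synthetases, which trap fatty acids in the cell, 9 of 10 were measured. Between ND and HFD24, 2 rose and none fell (median -0.12). Acsl4, known for its preference for arachidonic acid, read 2171, 2152 and 2438 in ND, 3445, 8419 and 6078 in HFD16, 5612, 5318 and 7218 in HFD24, and 3123, 4881 and 3436 in PTFC, so the ND arrays were the lowest. It rose by 1.44 (SE 0.26, limma adjusted p = 0.00311), past the test in 14 of 15 settings, and was -0.76 in PTFC against HFD24 (adjusted p = 0.0968). Acsbg1, dim and among the lowest 25% of probes, rose by 1.42 (adjusted p = 0.0318), a call lost without ND replicate 1 (0.115), ND replicate 2 (0.102), HFD24 replicate 1 (0.116) or HFD24 replicate 2 (0.0670), and in 3 of the other settings. Acsm5 (0.53) and Acsl5 (-0.39) did not pass. None of the 9 passed in PTFC against HFD24 by limma, though 2, Acsl4 and Acsbg1 (-1.01), had an unadjusted p under 0.05; Acsm3 was 0.37 and Acsl3 -0.47.

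Of the genes of lipoprotein lipolysis and uptake, 11 of 14 were measured, and between ND and HFD24 4 rose and 4 fell (median 0.29). Those that rose were Scarb1, the receptor for high-density lipoprotein (0.72, SE 0.15, limma adjusted p = 0.00576), Gpihbp1, which carries lipoprotein lipase across capillary endothelium (1.25, adjusted p = 0.00813), Vldlr, the receptor for very-low-density lipoprotein (1.17, adjusted p = 0.0221, with 1.26 for its other probe), and Apoc2, the activator of lipoprotein lipase (0.47, adjusted p = 0.0253). The 4 that fell, named here because the count is small and after their values were seen, were Lpl, lipoprotein lipase itself and dim here (-0.98), Lipg, endothelial lipase (-0.69), Apoa5, which promotes lipolysis (-0.62), and Angptl4, an inhibitor of lipoprotein lipase induced by fasting (-0.52). Scarb1 and Gpihbp1 passed in all 15 settings. Leaving out single arrays brought the list from 8 calls down to between 2 and 5. In PTFC against HFD24, Scarb1 fell by 0.65 (limma adjusted p = 0.0287) and Angptl4 rose by 0.61 (adjusted p = 0.0401), with all 3 and 3 arrays apart for both. Angptl4 read 104182.5, 108524 and 91638 in ND, 41673, 58881 and 41491 in HFD16, 75231, 69818 and 51895 in HFD24, and 96598, 123008 and 117494 in PTFC. Without any single array of the 2 groups both calls were lost (adjusted p 0.0581 to 0.158). Lipg (0.63, adjusted p = 0.0677) and Lpl (0.75, adjusted p = 0.138) did not pass.

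Of the nuclear receptors and coactivators known to act on these genes, 14 of 16 were measured. Between ND and HFD24, 2 fell and none rose (median -0.29), beside 7.96% lower and 8.5% higher of all probes. Ppargc1a, a coactivator of fasting metabolism, read 1164, 1329 and 1950.3 in ND, 396, 441 and 293 in HFD16, 450.4, 686 and 426 in HFD24, and 725, 762 and 597 in PTFC, with every ND array above every other. It fell by 1.40 (SE 0.25, limma adjusted p = 0.00289) in all 15 settings and differed by 0.16 between PTFC and HFD24. Nr1i2, the pregnane X receptor, fell by 0.85 (limma adjusted p = 0.00739), past the test in 14 of 15 settings. Rxrb (-0.40) and Ppargc1b (-0.50) did not pass. Between PTFC and HFD24 none of the 14 passed in limma and 3 had an unadjusted p under 0.05 (median 0.19): the smallest p belonged to Nr1i2 (0.54), Hnf4a (0.40), Ppargc1b (0.46) and Ppara (0.31), with adjusted p from 0.0910 to 0.250.

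**Figure D4:**
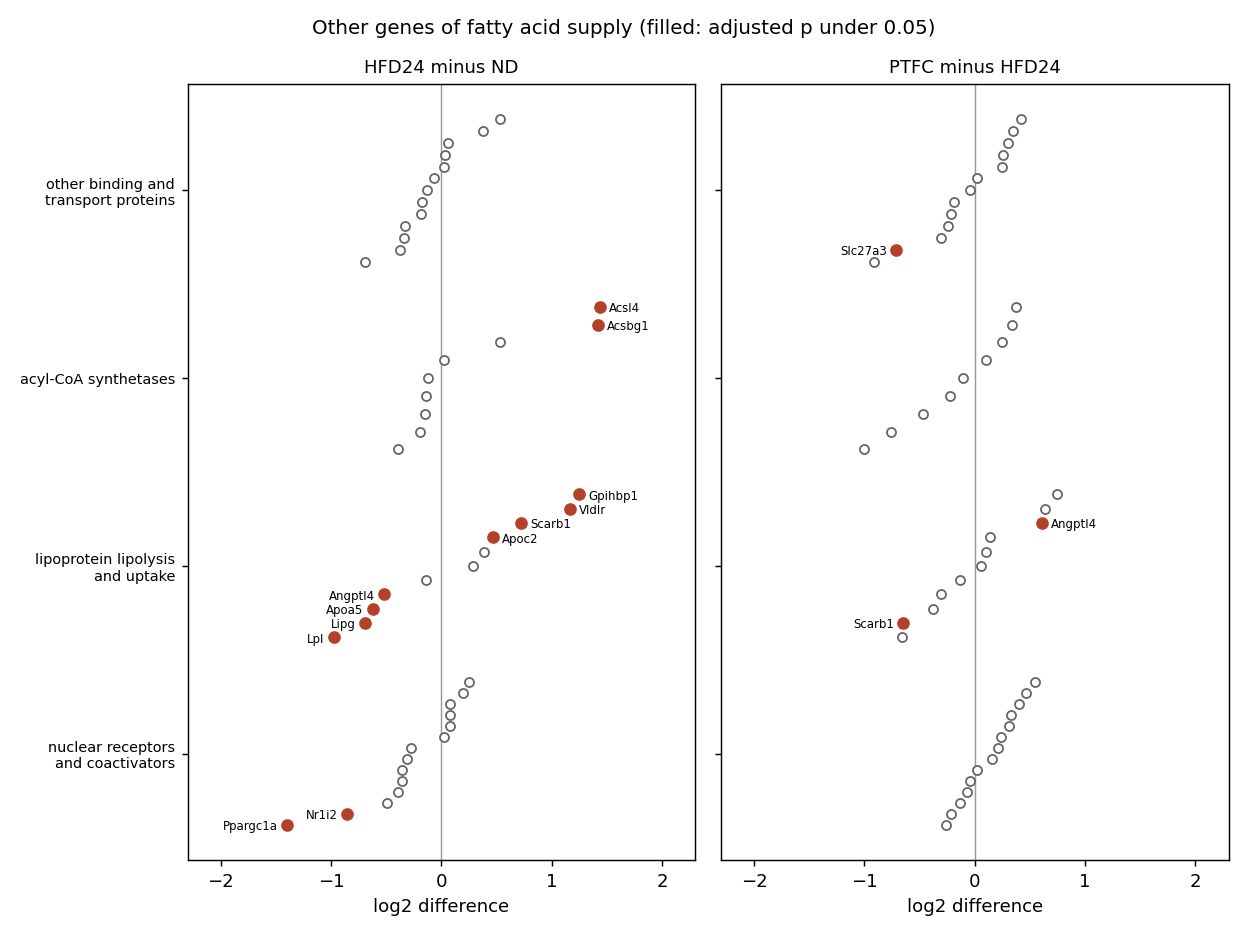
Log2 differences (horizontal axis) of the measured genes of 4 lists of fatty acid supply, 1 point per gene and sorted within a list, for HFD24 against ND (left) and PTFC against HFD24 (right); filled points have an adjusted p under 0.05 and are named. On the left the lipoprotein list has 4 filled points on each side of 0, and on the right 3 genes are filled.

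The genes whose normalized log2 values ran most like each member over the 12 arrays were taken among 14397 named genes above the dimmest 25%, as a description: the arrays share group and scaling, and a high r is sure to be found among so many genes. For probe A of Cd36 they were Duoxa2 (r = 0.987), Mlana (0.978) and Fxyd2 (0.976), each lower in HFD24 than in ND by 0.74 to 0.82 log2 units and higher in PTFC than in HFD24 by 0.73 to 0.81. For Mfsd2a they were Phospho1 (0.946), Unc79 (0.937) and Usf2 (0.934). None of these passed in HFD24 against ND (limma adjusted p = 0.0536, 0.0548 and 0.201). For Fabp2 they were Rab20 (0.966), Acy3 (0.965) and Gas7 (0.951), each 1.01 to 1.47 above ND in HFD24. Group differences like those of the member follow from the choice by r. Fabp5 was nearest to Rtl5, Fstl3 and Tgif2 (0.933 to 0.935), Slc27a5 to Mad2l1bp, Chchd3 and Mtmr1 (0.910 to 0.944), and Slc27a2 to Setd6, Leo1 and Hdgfl2 (0.915 to 0.924). The likeness was lower for Fabp4, with Sec13, Cox8b and Thbd (0.857 to 0.887), and lowest for Fabp1, with Pex26, Fbxo44 and Slamf6 (0.811 to 0.817).

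Upstream sequence was found in the RefSeq table for 5 of 8 members, including Slc27a2 at chr2:126552774-126553023 on the plus strand. The half-site AGGTCA, searched on both strands, was in 4 of these 5 windows, that is in those of Cd36, Slc27a2, Mfsd2a and Fabp1, and in 14.0% of 32851 windows of the same 250 bases. A repeat of it with 1 letter between, AGGTCANAGGTCA, was in none of the 5 and in 0.0335% of all windows. The form with 1 letter of the first site open, AGGNCANAGGTCA, which was written down after the Fabp1 sequence had been seen and overlaps the half-site there, was in the window of Fabp1 alone and in 0.0822% of all. TATAAA was in that of Fabp1, 30 to 25 bases upstream, and in 12.4% of all, and CACGTG in none of the 5 and in 6.02% of all. The 4 windows with a half-site belong to 2 genes with a called probe and to 2 with none, and the window of Fabp2, which rose, holds none. A match is a run of letters and not a measured site, and these arrays hold no measurement of binding.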

How the data were processed

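Per the labels' protocols, Trizol was used to isolate liver RNA, and amplified amino-allyl RNA carried the Cy5 label. The authors deposited linear intensity values of 26423 probes on each of 12 arrays; background and scaling steps: not given in the sources used here. Out of 317076 deposited intensities, 291 were below 0 and were set to 0. log2(intensity + 1) of the deposited values was quantile normalized over the 12 arrays; the added 1 draws the log2 values of the dimmest probes together before normalization. The platform table paired 21876 probes with 1 symbol and left 4547 unnamed; lists used the probe of highest mean per gene.

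All probes were fitted with limma 3.58.1 in R 4.3.3 (4 group means, trended eBayes, no block), two-sided, with a Benjamini-Hochberg adjusted p under 0.05 as the threshold. Intervals are 95%. A single value between 3 and 3 arrays was tested by exact permutation, whose smallest p is 0.1. The 15 alternatives were the deposited scale, median centring, a pseudocount of 32, no probes of the dimmest 25%, 1 probe per gene, no variance trend, a replicate block, the scaling step as a covariate, the 2 groups alone, and each array of the 2 groups left out. The fit was tested on simulated data with independent noise and no array scaling, which cannot show how stable the calls are here. All members were named, and of each list up to 4 genes of smallest p in HFD24 against ND and in PTFC against HFD24. Members and lists were chosen with earlier results of these data known. The number of arrays limits the precision. Upstream sequences are from RefSeq (GRCm38.p6). The alternatives for pathway genes were added after the data were seen.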

Additional observations from a re-analysis of the deposited data

How the results depend on the processing

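Over the alternatives, 594 recomputed differences of member probes kept their direction and side of the threshold, 24 lost the call, 8 gained it and 44 changed sign, and no member called in a comparison changed sign. For counts over all probes, leaving 1 array out gave 1981 to 6486 in HFD24 against ND (4348), 1436 to 5896 in HFD16 against ND (4316), 3 to 11 in HFD24 against HFD16 (6), 56 to 632 in PTFC against ND (463), and 8 to 707 in PTFC against HFD24 (1528), with 8 without PTFC replicate 3, 79 without HFD24 replicate 1 and 304 without HFD24 replicate 2. Member calls then ranged from 0 to 2 in PTFC against HFD24. The scaling step was larger on every ND array than on any array of the other groups, so it cannot be told apart from the diet. As a covariate it left 1133 in HFD24 against ND, 183 in HFD16 against ND and 57 in PTFC against ND. The deposited scale gave 3101 in PTFC against HFD24 (92.4% higher, beside 53.1%) and 2 in HFD24 against HFD16, and its share of higher calls was 35.6% beside 51.7% for HFD24 against ND, 28.7% beside 52.9% for HFD16 against ND and 67.4% beside 41.5% for PTFC against ND. Median centring gave 255 in PTFC against ND (29% higher), with 0 member calls, and 2 in HFD24 against HFD16 (0% higher, beside 50%). Without the variance trend the latter had 3, and with the 2 groups alone 0 (6 in the main fit), while HFD24 against ND then had 5 member calls, Fabp4 and Fabp5 added.

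Replicate numbers are shared by the groups, and no label says that equal numbers pair samples. Deviations from the group means had a median r of -0.055 over 18 pairs of arrays of the same number, 3 of them over 0.1. For arrays of different number it was 0.0078 over 36 pairs, 10 of them over 0.1. Such correlations cannot decide whether the numbers pair samples. The replicate block gave 611 calls in PTFC against HFD24 and 289 in PTFC against ND. With it Cd36 probe A lost its call in HFD16 against ND (adjusted p = 0.0677) and Fabp4 gained one in HFD24 against ND (0.0471); it changed no other member call. Slc27a3 (0.0598) and Scarb1 (0.0548) lost theirs in PTFC against HFD24 and Lpl (0.0640) in HFD24 against ND.

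Signs changed only in member differences that did not pass. In HFD24 against ND median centring gave 0.17 for Slc27a2 and 0.080 for Fabp1, and the step covariate 0.061 and 0.027; single arrays gave -0.17 to 0.13 for Slc27a2. In PTFC against HFD24 Fabp2 was 0.074 on the deposited scale and Fabp1 -0.23 under median centring; single arrays gave -0.18 to 0.023 and -0.045 to 0.16. In HFD16 against ND Fabp1 was 0.092 under median centring and 0.060 with the step, and Slc27a2 -0.00089 with 1 probe per gene; single arrays gave -0.083 to 0.0079 for Fabp1 and -0.16 to 0.13 for Slc27a2. In HFD24 against HFD16 the deposited scale gave 0.024 for Fabp1 and 0.042 for Fabp5, median centring 0.0065 and the step 0.15 for Fabp5; single arrays gave -0.061 to 0.025 for Fabp1, -0.37 to 0.43 for Fabp5, -0.11 to 0.12 for Slc27a2 and -0.037 to 0.85 for Fabp4. In PTFC against ND the deposited scale gave 0.029 for Cd36 probe A, 0.017 for Fabp1 and 0.089 for Fabp5, and the step -0.19 for Mfsd2a and 0.070 for Fabp1; single arrays gave -0.27 to 0.031 for Cd36 probe A, -0.10 to 0.11 for Fabp1, -0.47 to 0.23 for Fabp5 and -0.19 to 0.061 for Slc27a5. The cause was not tested.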
